A study of Arabidopsis thaliana with 6 samples.

Results

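The 9 genes described here act in malate release and in the iron-dependent stop of root growth under low phosphate, in whole Arabidopsis thaliana seedlings of the phod2 mutant and of the wild type. They were taken by gene identifier and are STOP1, ALMT1, MATE, ALS3, LPR1, LPR2, PDR2, PPCK1 and PPCK2, 9 of the 32833 genes in the deposited table, and all 9 had enough reads to be tested. Messenger RNA was sequenced from seedlings aged 8 days in 3 libraries of genotype phod2 and 3 libraries of genotype WT. The series title names LIP1p, a plastidial lipoyl synthase, as a factor in phosphate balance; the library descriptions of the mutant name LIP1, and the kind of change that phod2 carries is not given in the labels. High and low phosphate are mentioned for the series as a whole and no library is assigned to either, so supply entered no comparison, and all groups are described by genotype alone.

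In Arabidopsis roots that meet low phosphate, the zinc finger transcription factor STOP1 gathers in the nucleus and switches on ALMT1, the gene of a malate channel of the plasma membrane. The malate released into the cell wall acts together with iron and with the ferroxidases LPR1 and LPR2 in the root tip, where reactive oxygen species, callose and peroxidase activity stop the growth of the primary root. PDR2, an ATPase of the endoplasmic reticulum, holds this response back. The malate itself is made from phosphoenolpyruvate by phosphoenolpyruvate carboxylase, an enzyme that the kinases PPCK1 and PPCK2 phosphorylate and so make less sensitive to inhibition by malate, and both kinase genes are known to respond to phosphate starvation.

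Of the 9 genes, PPCK1 was the only gene that rose, by 1.69-fold, while ALMT1 fell to 0.772 of its WT level and PDR2 to 0.933. The other 6, STOP1, MATE, ALS3, LPR1, LPR2 and PPCK2, did not pass the test, and none of the 9 reached a 2-fold change. Thus 3 of 9 genes passed the adjusted p of 0.05 in edgeR's quasi-likelihood test, set beside 45.5% of the 20169 genes tested, a share that the 9 genes do not exceed: 1 of 9 was higher, beside 20.9% of all genes, and 2 of 9 were lower, beside 24.6%. In DESeq2 2 of 9 passed, beside 31.7% of the genes it tested. The libraries of the genotypes did not overlap in FPKM for PPCK1, ALMT1 and PDR2, 3 of 9, beside 54.1% of all genes tested. By the study's own rule, which adds a change of at least 2-fold, 0 of the 9 were called by edgeR or by DESeq2. In edgeR this is set beside 7.51% of all genes. The median log2 fold change was 0.00 for the 9 genes and 0.01 for all genes tested. All fold changes are phod2 over WT.

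The libraries held 17319308 to 22417595 counted reads. LIP1P, the gene of the lipoyl synthase named in the title, had 387, 425 and 417 counts in phod2 replicates 1 to 3, against 769, 558 and 773 in WT replicates 1 to 3 (log2 fold change -0.74 ± 0.06, SE, adjusted p = 4.7e-15), lower in every phod2 library. Markers of both root and green shoot were present in all libraries. All 8 root hair markers fell, beside 24.6% of all genes, and their summed level was 13.4 to 14.6 FPKM in phod2, against 41.2 to 47.0 FPKM in WT. Of 6 endodermis markers 4 fell, beside 24.6% of all genes, with a summed level of 38.3 to 41.9 FPKM in phod2 and 89.9 to 99.2 FPKM in WT. The others, SCR and ESB1, did not pass, at log2 fold changes of 0.10 and 0.65. ESB1 had 7 to 23 counts a library, with every phod2 library above every WT library in FPKM. It shares 84.6% of its length with AT2G28671 on the other strand, which had up to 117 counts. Of 8 green shoot markers 5 rose, beside 20.9% of all genes, and 2 fell, beside 24.6%. Their summed level was 22111 to 22384 FPKM in phod2 and 21010 to 21206 FPKM in WT. No marker of the 3 lists was at 0 in all libraries. In bulk seedlings, fewer cells of a type and less RNA per cell cannot be told apart.

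**Figure D1:**
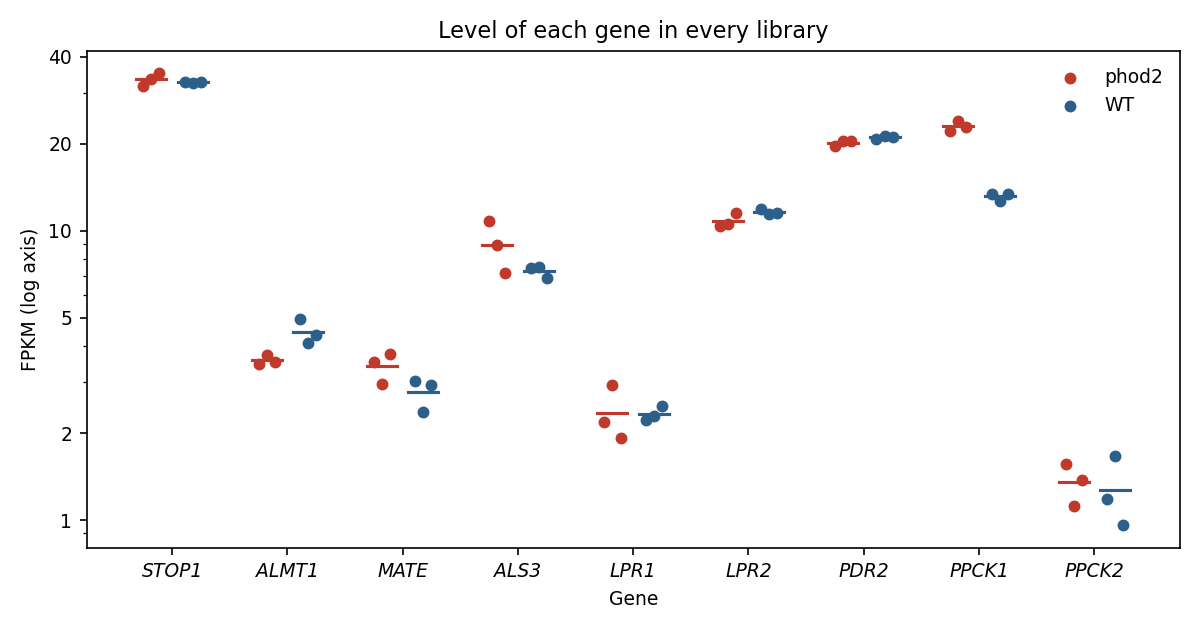
Level of each of the 9 genes in FPKM (log axis) in the 3 phod2 libraries (red) and the 3 WT libraries (blue); each point is a library and each bar the mean. PPCK1 lies at 22.1 to 24.0 FPKM in phod2 and at 12.7 to 13.4 FPKM in WT, while the points of STOP1, MATE, ALS3, LPR1, LPR2 and PPCK2 overlap between the genotypes.

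The stretch of DNA just before the gene start is shown for ALMT1, which fell, and for PPCK2, which did not pass the test, the first because STOP1 is known to act on this gene and the second because the kinase genes are known to respond to phosphate. Each is the 250 bases before the annotated start of the gene in TAIR10.1, on the strand of the gene, which is the plus strand for both. They were searched on both strands for P1BS, the element bound by the phosphate starvation regulator PHR1, as GNATATNC, which reads the same on either strand; a match would stand in capitals, and neither window holds one.
ALMT1: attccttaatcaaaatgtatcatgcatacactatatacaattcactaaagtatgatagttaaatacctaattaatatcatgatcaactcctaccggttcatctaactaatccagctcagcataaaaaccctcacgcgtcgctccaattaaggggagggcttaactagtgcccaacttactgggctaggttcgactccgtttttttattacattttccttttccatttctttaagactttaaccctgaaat
PPCK2: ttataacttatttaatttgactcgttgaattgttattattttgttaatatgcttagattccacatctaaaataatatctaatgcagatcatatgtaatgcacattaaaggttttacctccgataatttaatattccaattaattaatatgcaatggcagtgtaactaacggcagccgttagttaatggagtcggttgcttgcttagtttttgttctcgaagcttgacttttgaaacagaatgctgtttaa
The windows lie at chr1:2658352-2658601 for ALMT1 and chr3:1221172-1221421 for PPCK2. Of the 8 genes searched, which leave out PPCK1, 0 had a match there, while 5.4% of the 32546 windows of the same length over all genes had at least 1. Within 1000 bases before the start, 2 of the 8 genes had a match, set beside 20.1% of all genes: PPCK2 had 1 at 865 bases and MATE 1 at 481 bases. A match describes these letters and does not show that a factor binds there, and its absence says only that these letters are not in the window.

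PPCK1, a kinase gene that acts on phosphoenolpyruvate carboxylase, rose in phod2, and its paralogue PPCK2 stayed low in both genotypes. PPCK1 (AT1G08650, chromosome 1, positions 2752124 to 2753809, plus strand, 2 exons in its longest transcript) had 22.05, 24.01 and 22.87 FPKM in phod2 replicates 1 to 3, against 13.43, 12.69 and 13.38 FPKM in WT replicates 1 to 3. Every phod2 library lay above every WT library. The means were 23.0 ± 0.984 FPKM in phod2 and 13.2 ± 0.414 FPKM in WT (SD, n = 3 each), from 621, 728 and 750 counts in phod2 and 471, 344 and 453 counts in WT. On the log2 scale the difference was 0.76 ± 0.06 (SE; edgeR, adjusted p = 6.2e-16), with a 95% interval of 1.55-fold to 1.85-fold, so it lay short of 2-fold. Among all genes tested, 3.1% had a log2 fold change as high or higher, and 11.3% changed as much or more in either direction. AT1G08645, a gene on the other strand, spans 28.0% of PPCK1 and had 0 counts in all libraries.

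PPCK2 (AT3G04530, chromosome 3, positions 1221422 to 1222744, plus strand) encodes the other kinase of the pair, and its coding sequence is identical to that of PPCK1 at 66.4% of aligned positions. It had 1.56, 1.12 and 1.38 FPKM in phod2 and 1.18, 1.66 and 0.96 FPKM in WT, and the genotypes overlapped. These levels rest on 35, 27 and 36 counts in phod2 and 33, 36 and 26 counts in WT. The comparison of phod2 with WT gave 0.07 ± 0.25 on the log2 scale (SE; adjusted p = 0.847), with a wide 95% interval of 0.738-fold to 1.49-fold. The log2 ratio of PPCK1 over PPCK2 within a library was 3.74, 4.30 and 3.96 in phod2, against 3.40, 2.86 and 3.67 in WT. It was 0.69 higher in phod2 on average, with no overlap between the genotypes (exact 2-sided permutation test, p = 0.1, adjusted p = 0.133 over the 4 ratios compared), and 3 libraries against 3 cannot give a p below 0.1.

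STOP1 (AT1G34370, chromosome 1, positions 12550339 to 12552629, plus strand), the transcription factor at the head of the response, had the highest level of the 9 genes in both genotypes and did not pass the test. It had 31.61, 33.55 and 35.0 FPKM in phod2 and 32.55, 32.52 and 32.63 FPKM in WT. The phod2 libraries lay on both sides of the WT libraries. A log2 fold change of 0.00 ± 0.04 was found (SE; adjusted p = 0.955), and the 95% interval ran from 0.939-fold to 1.06-fold. STOP1 is known to be controlled largely through its protein, which these libraries do not measure.

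ALMT1 (AT1G08430, chromosome 1, positions 2658602 to 2661310, plus strand, 6 exons), the malate channel gene that STOP1 activates, fell. It had 3.46, 3.71 and 3.53 FPKM in phod2, against 4.94, 4.09 and 4.38 FPKM in WT, and every phod2 library lay below every WT library. The counts behind these levels were 122, 141 and 145 in phod2 and 217, 139 and 186 in WT. This was a log2 fold change of -0.37 ± 0.12 (SE; edgeR, adjusted p = 0.00596), with a 95% interval of 0.658-fold to 0.906-fold, and 26.2% of all genes tested changed as much or more in either direction. WT replicate 1 held the highest value, and without it the log2 fold change was -0.29 and the call was lost (adjusted p = 0.0663). ALMT1 is known mainly from roots, and all 8 root hair markers and 4 of the 6 endodermis markers fell in the same libraries. Of 11 genes of the root meristem, 2 rose, 2 fell and 7 did not pass. The part of these root genes in the fall of ALMT1 was not tested. The log2 ratio of ALMT1 over STOP1 was -3.15, -3.14 and -3.27 in phod2, against -2.70, -2.96 and -2.87 in WT, a difference of -0.35 (exact 2-sided permutation test, p = 0.1, the smallest it can give, adjusted p = 0.133).

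MATE and ALS3, which like ALMT1 belong to the genes that STOP1 controls in aluminium tolerance, had somewhat higher mean levels in phod2 and did not pass the test. MATE (AT1G51340, chromosome 1, positions 19030998 to 19035121, plus strand), a citrate transporter gene, had 3.53, 2.96 and 3.76 FPKM in phod2 and 3.02, 2.37 and 2.93 FPKM in WT. The lowest phod2 library lay within the WT range. Its log2 fold change of 0.25 ± 0.12 (SE) had an adjusted p of 0.0774. ALS3 (AT2G37330, chromosome 2, positions 15669131 to 15670187, plus strand), an ABC transporter subunit gene whose loss is known to sharpen the root response to low phosphate, had 10.79, 8.93 and 7.14 FPKM in phod2 and 7.42, 7.48 and 6.86 FPKM in WT. ALS3 shares 3.9% of its length with AT2G37340 on the other strand, which had up to 1637 counts. Its phod2 libraries were spread far more than its WT libraries, with SDs of 1.82 and 0.342 FPKM (phod2 and WT, n = 3 each). For ALS3 it was 0.25 ± 0.13 (SE; adjusted p = 0.0963), and it ran from 0.11 without phod2 replicate 1 to 0.40 without phod2 replicate 3, where it passed (adjusted p = 0.0109). On library totals without a scaling factor both genes passed, with adjusted p of 0.0352 for MATE and 0.0475 for ALS3; MATE also passed without phod2 replicate 2 (adjusted p = 0.0263) and without WT replicate 1 (adjusted p = 0.0488). The log2 ratio of MATE over ALMT1 was 0.03, -0.32 and 0.09 in phod2, against -0.69, -0.76 and -0.56 in WT. That ratio was 0.61 higher in phod2, with no overlap between the genotypes (exact 2-sided permutation test, p = 0.1, adjusted p = 0.133).

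**Figure D2:**
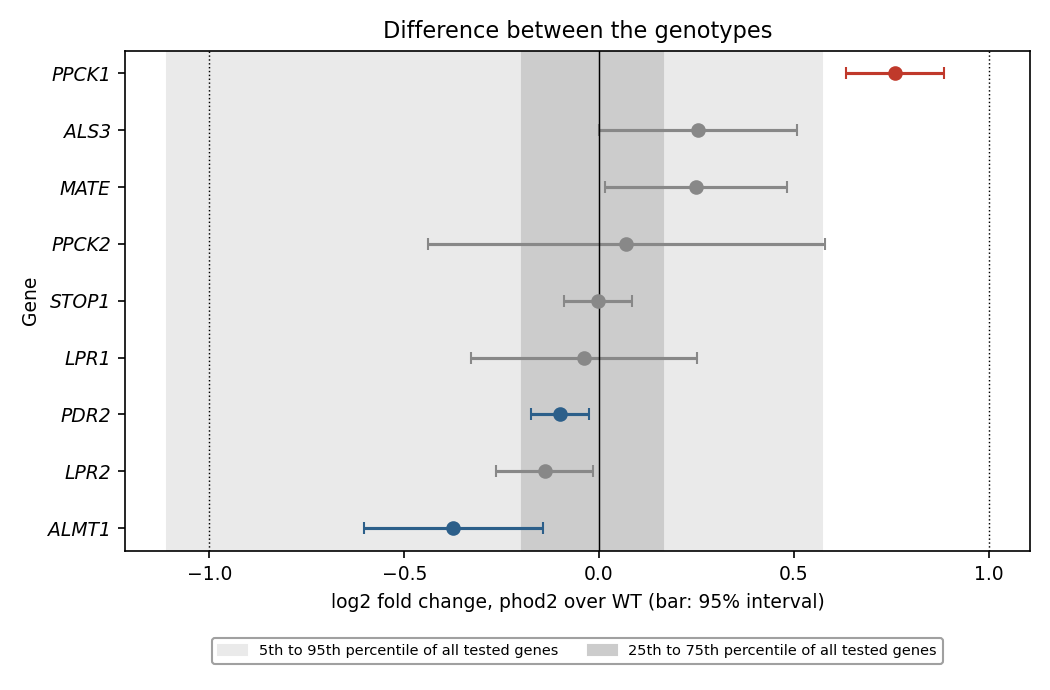
Log2 fold change of phod2 over WT (horizontal axis) for each of the 9 genes, with its 95% interval; red rose, blue fell, grey did not pass the adjusted p of 0.05, grey bands show the percentiles of all tested genes, and dotted lines mark 2-fold. PPCK1, at 0.76, lies above the 95th percentile of all tested genes, which is 0.57, and the other 8 genes lie between -0.37 and 0.25.

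Of the genes that set the iron response of the root tip, PDR2 fell slightly and the LPR genes did not pass the test. PDR2 (AT5G23630, chromosome 5, positions 7960478 to 7968197, minus strand, 22 exons), which restrains LPR1, had 19.67, 20.38 and 20.47 FPKM in phod2, against 20.79, 21.26 and 21.01 FPKM in WT. All phod2 libraries lay below all WT libraries, by a small margin. The fall was -0.10 ± 0.04 as a log2 fold change (SE; edgeR, adjusted p = 0.0247), with a 95% interval of 0.886-fold to 0.983-fold. The call was lost in DESeq2 (adjusted p = 0.106), on library totals (adjusted p = 0.200, log2 fold change -0.06), by limma on log2 FPKM (adjusted p = 0.290 and 0.291), and without phod2 replicate 1, WT replicate 2 or WT replicate 3 (adjusted p = 0.109, 0.0804 and 0.0572).

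LPR1 (AT1G23010, chromosome 1, positions 8147118 to 8149891, plus strand), the main ferroxidase of the response, had 2.18, 2.93 and 1.92 FPKM in phod2 and 2.22, 2.29 and 2.48 FPKM in WT. Its phod2 libraries held both the highest and the lowest value. A log2 fold change of -0.04 ± 0.14 (SE) had an adjusted p of 0.855, with a 95% interval of 0.797-fold to 1.19-fold. LPR2 (AT1G71040, chromosome 1, positions 26796725 to 26800483, minus strand), whose coding sequence is identical to that of LPR1 at 75.9% of aligned positions, was the more abundant of the pair in every library. It had 10.41, 10.53 and 11.50 FPKM in phod2 and 11.87, 11.40 and 11.49 FPKM in WT, and the highest phod2 library lay within the WT range. LPR2 differed by a log2 fold change of -0.14 ± 0.06 (SE; adjusted p = 0.0616), and it passed without phod2 replicate 3 (-0.19, adjusted p = 0.0288). The log2 ratio of LPR1 over LPR2 was -2.20, -1.81 and -2.52 in phod2 and -2.37, -2.27 and -2.17 in WT, a difference of 0.09 with full overlap (exact 2-sided permutation test, p = 0.8, adjusted p = 0.8).

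**Figure D3:**
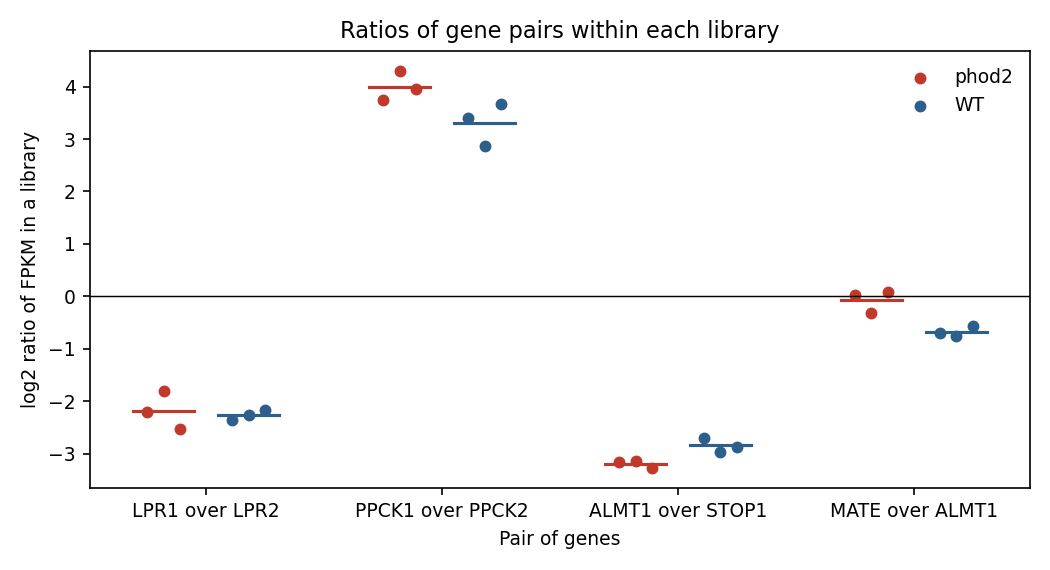
Log2 ratio of FPKM within each library (vertical axis) for 4 pairs of genes, in the 3 phod2 libraries (red) and the 3 WT libraries (blue), with the mean as a bar. The points of LPR1 over LPR2 overlap, and those of the other 3 pairs do not, with differences of 0.69, -0.35 and 0.61. Among single genes tested, 54.1% had no overlap in FPKM between the genotypes, and no such share was taken over pairs of genes.

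Per base of exon, the order of levels was alike in the genotypes except for PPCK1. In phod2 the order from high to low was STOP1, PPCK1, PDR2, LPR2, ALS3, ALMT1, MATE, LPR1 and PPCK2, with mean levels of 33.4 to 1.35 FPKM, and in WT it was STOP1, PDR2, PPCK1, LPR2, ALS3, ALMT1, MATE, LPR1 and PPCK2, with mean levels of 32.6 to 1.27 FPKM. PPCK1 thus stood above PDR2 in all phod2 libraries and below it in all WT libraries. Neighbours whose ranges overlapped were LPR2 and ALS3, and ALMT1 and MATE, in phod2, and MATE and LPR1 in WT. The genes whose pattern over the 6 libraries was closest to that of PPCK1, among 13315 genes of at least 5 FPKM on average, were AT1G71810, AT3G14330 and FP3 (AT5G63530), with Pearson correlations of log2(CPM + 1) of 0.999 each, given as a description. With 2 groups of 3 libraries such likeness is common, and 1395 genes had a correlation over 0.95. FP3 had 54.22, 57.34 and 57.00 FPKM in phod2 and 37.40, 36.12 and 36.79 FPKM in WT.

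Genes that act around STOP1, its regulators and its other targets, moved in both directions. Of 18 listed, 17 were tested, 3 rose, 6 fell and 8 did not pass, so 52.9% passed, set beside 45.5% of all genes; the median log2 fold change was 0.00. GDH1, a glutamate dehydrogenase gene, rose to 61.1 ± 1.82 FPKM in phod2, against 45.5 ± 1.40 FPKM in WT (SD, n = 3 each; log2 fold change 0.38, adjusted p = 1.8e-13). NRT1.1, the nitrate transporter and sensor gene, fell to 64.0 ± 1.91 FPKM in phod2, against 77.3 ± 1.30 FPKM in WT (log2 fold change -0.31, adjusted p = 4.4e-13). The largest difference in the list was that of WRKY46, a transcription factor gene known as a repressor of ALMT1, which had 1.07, 1.87 and 1.27 FPKM in phod2, against 0.26, 0.21 and 0.17 FPKM in WT. It rose by 2.63 ± 0.36 on the log2 scale (SE, adjusted p = 1.1e-08), the only member past 2-fold, at levels that were low in both genotypes. Its counts were 26, 49 and 36 in phod2 and only 8, 5 and 5 in WT. By limma on log2(FPKM + 1), where the pseudocount shrinks folds of low genes, the rise of WRKY46 was 0.97, under 2-fold. CAMTA2, a calmodulin-binding activator known to act on ALMT1, fell by 0.25 on the log2 scale (adjusted p = 6.9e-05). The F-box gene RAE1, whose protein takes part in the breakdown of STOP1, was at a log2 fold change of 0.07 with an adjusted p of 0.292, and it is named here after its value was seen.

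Other members of the ALMT family of anion channels were few and moved in both directions. Of 13 listed, 7 were tested, 1 rose, 3 fell and 3 did not pass, so 57.1% passed, set beside 45.5% of all genes, of which 20.9% were higher and 24.6% lower; the median log2 fold change was -0.40. ALMT12, an anion channel gene of guard cells, fell to 5.48 ± 0.345 FPKM in phod2, against 8.31 ± 0.0929 FPKM in WT (log2 fold change -0.64, adjusted p = 6.0e-09), and ALMT5 to 8.04 ± 0.269 FPKM in phod2, against 11.3 ± 0.467 FPKM in WT (-0.53, adjusted p = 1.3e-08). ALMT10 fell by 0.65 on the log2 scale (adjusted p = 3.1e-05; -0.38 by limma on log2(FPKM + 1)), and it shares 48.2% of its length with a gene on the other strand that had 0 counts. ALMT9, a channel gene of the vacuole, rose by 0.17 (adjusted p = 0.0275), a call lost in DESeq2 (adjusted p = 0.106) and without phod2 replicate 3 or any single WT replicate (adjusted p = 0.0507 to 0.151). ALMT2, the neighbour of ALMT1 with 82.6% identity of coding sequence, stayed at 0.06 to 0.13 FPKM in phod2 and 0.06 to 0.12 FPKM in WT and was too low to test.

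Genes of malate and citrate metabolism fell more often than they rose, and 1 of them passed 2-fold. Of 25 listed, 23 were tested, 3 rose, 14 fell and 6 did not pass, and the median log2 fold change was -0.13. Thus 73.9% passed, set beside 45.5% of all genes (20.9% higher and 24.6% lower). These shares of all genes were not matched for level, and in abundant genes small changes can pass. PPC3, known from roots, is a gene of phosphoenolpyruvate carboxylase, the enzyme that PPCK kinases act on. It fell to 24.4 ± 0.665 FPKM in phod2, against 35.9 ± 0.293 FPKM in WT (log2 fold change -0.60, adjusted p = 1.2e-22). FUM2, the cytosolic fumarase gene, fell to 29.0 ± 1.27 FPKM in phod2, against 41.2 ± 1.45 FPKM in WT (-0.55, adjusted p = 1.3e-18). TDT, the malate carrier gene of the vacuole, fell by 0.42 (adjusted p = 8.4e-14) and CSY4, a mitochondrial citrate synthase gene, by 0.30 (adjusted p = 1.9e-11) on the log2 scale. The only member past 2-fold was NADP-ME3, a malic enzyme gene named after its value was seen, at 0.850 ± 0.233 FPKM in phod2 and 2.03 ± 0.231 FPKM in WT (-1.30, adjusted p = 4.2e-08; -0.72 by limma on log2(FPKM + 1)). PPC3 fell in the same libraries as the 8 root hair markers and 4 of the 6 endodermis markers, whose part in it was not tested.

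Genes of the root meristem, where LPR1 and PDR2 are known to act, moved in both directions. Of 11 tested, 2 rose, 2 fell and 7 did not pass, so 36.4% passed, set beside 45.5% of all genes, and the median log2 fold change was -0.02. UPB1, a transcription factor gene that sets reactive oxygen species in the root tip, had 0.93, 1.21 and 0.96 FPKM in phod2, against 3.37, 3.60 and 4.06 FPKM in WT. It fell by 1.87 ± 0.23 on the log2 scale (SE, adjusted p = 8.7e-10) and was the only member past 2-fold, at -1.20 by limma on log2(FPKM + 1). UPB1 fell in the same libraries as the 8 root hair markers and 4 of the 6 endodermis markers, whose part was not tested. CLV2, a receptor gene of the CLE14 peptide signal, rose by 0.29 (adjusted p = 0.0108) and CALS3, a callose synthase gene, by 0.12 (adjusted p = 6.4e-04) on the log2 scale, while BZR1, a brassinosteroid transcription factor gene, fell by 0.13 (adjusted p = 0.0466). In DESeq2 the calls of CLV2 and BZR1 were lost (adjusted p = 0.0566 and 0.167); that of CLV2 was also lost without phod2 replicate 3 (adjusted p = 0.0774), and that of BZR1 in all but 2 of 14 alternatives.

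**Figure D4:**
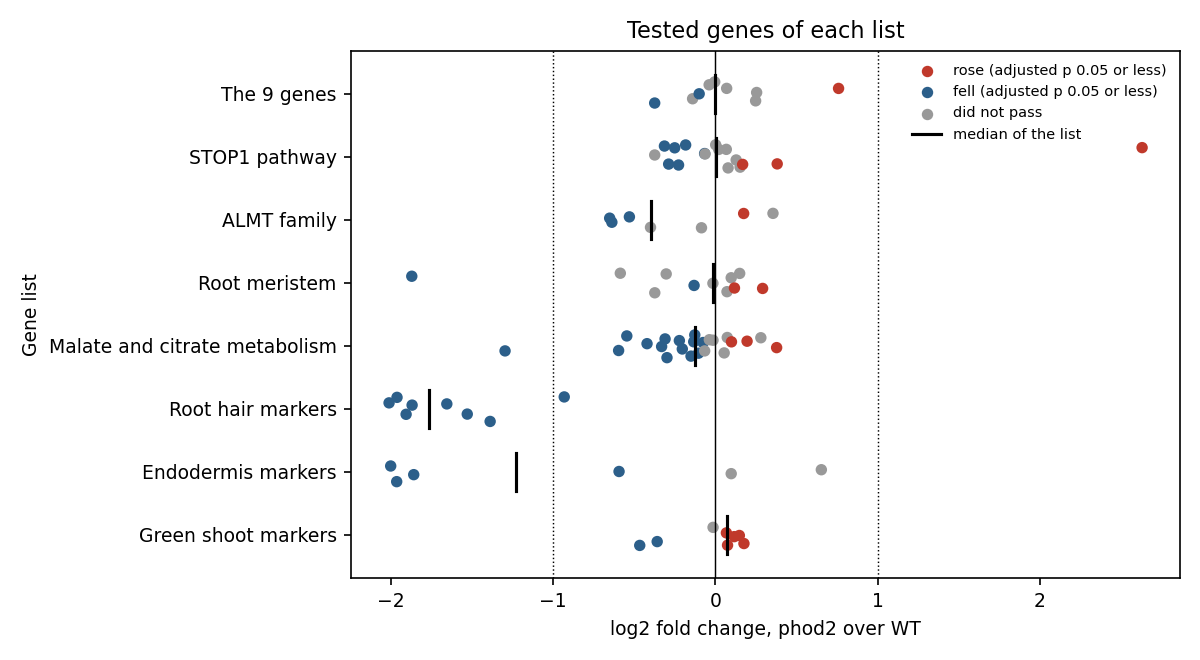
Log2 fold change of phod2 over WT (horizontal axis) for the tested genes of each list; each point is a gene, coloured by whether it rose, fell or did not pass, black bars are medians and dotted lines mark 2-fold. The 9 genes have a median of 0.00, and all 8 root hair markers lie between -2.01 and -0.93.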

How the data were processed

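RNA sequencing of whole seedlings gave 6 libraries, 3 of phod2 and 3 of WT, grouped by sample title. The table the authors deposited gives raw counts and FPKM for each gene in each library. Dividing a count by exonic size and library total returns the FPKM to within 0.005. Neither aligner nor counter nor strandedness is stated in any label or header, so reads of a gene and of a gene on the other strand cannot be told apart. The build mm10 in the submitters' processing notes is a mouse build, whereas 32532 of 32548 identifiers found in TAIR10.1 had the same start and end there, and sequences and positions are those of TAIR10.1.

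Counts were tested with edgeR 4.0.16 (R 4.3.3, glmQLFit and glmQLFTest, 2-sided, TMM, filterByExpr, genotype as the only term), adjusted by Benjamini-Hochberg over all 20169 genes. The step was also run on simulated counts with few genes changed and a fixed spread. In the data 45.5% of genes passed, so that run cannot show the error rate here. Standard errors were obtained as the log2 fold change over the square root of F, without sign, and the 95% interval uses the t distribution with the degrees of freedom of the fit. Ratios were taken on FPKM plus 0.1 and tested by exact permutation (scipy 1.17.1). The p-values rest on the spread among these libraries, which may be technical in part, and the number of counts limits precision for genes such as PPCK2. As fitted by edgeR, the common biological coefficient of variation between libraries of a genotype was only 2.83%. Levels are compared between genes in FPKM, which is per length.

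The 9 genes and the lists were chosen with earlier results of these data known, the lists from general knowledge, which also holds for the marker lists. Named genes are the 9, up to 4 members of each list with the lowest adjusted p, and the 3 genes closest in pattern to the member with the lowest adjusted p; others are said to be named after their values were seen. Transcripts were compared with all others of TAIR10.1 by BLAST 2.17.0, and none of the 9 matched another gene at 95% identity or more over 30% or more of its length. Alternatives were DESeq2 1.42.0, other scalings and filters, limma 3.58.1 on log2(FPKM + 1) and log2(FPKM + 0.1), a replicate block, and each library left out. Coding sequences were aligned with Biopython 1.88. The sequence before the start of PPCK1 is not reported here.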

Additional observations from a re-analysis of the deposited data

How the results depend on the processing

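Among the 9 genes, PPCK1 kept its direction and its side of the threshold in all 14 alternatives, with log2 fold changes of 0.73 to 0.80, and ALMT1 kept its direction in all 14 and its call in all but the fit without WT replicate 1. The number of the 9 genes past the adjusted p was 2 to 4 over other tools and settings, and 2 to 5 with each library left out. Of all genes, 9172 passed in the main fit. That number was 7133 to 9796 over other tools and settings, and 8203 to 8525 with each library left out. The number of all genes called at 2-fold was 362 higher and 1153 lower in edgeR; with limma on log2(FPKM + 1) 131 were higher and 488 lower, against 345 higher and 1005 lower on log2(FPKM + 0.1), so the larger pseudocount gave fewer calls; they were 368 to 403 higher and 1154 to 1237 lower with each library left out. STOP1, LPR1 and PPCK2, which did not pass in any alternative, changed sign in some. STOP1 had log2 fold changes of 0.0002 with RLE size factors, 0.0378 on library totals and 0.0336 and 0.0345 in limma with pseudocounts of 1 and 0.1, and -0.037 to 0.0337 with each library left out. LPR1 had 0.0033 on library totals and -0.23 to 0.10 with each library left out, and PPCK2 had -0.10 to 0.29. With each library left out the difference of the log2 ratios was -0.10 to 0.26 for LPR1 over LPR2, 0.46 to 0.87 for PPCK1 over PPCK2, -0.41 to -0.28 for ALMT1 over STOP1 and 0.53 to 0.73 for MATE over ALMT1. The labels do not say that the replicate numbers mark pairs. Deviations from the genotype means hardly correlated between libraries of the same number (-0.0212, 0.00965 and -0.00777 for replicates 1 to 3). Such values cannot show whether the libraries were made as pairs. The fit with a replicate block called the same number of the 9 genes, 3, with log2 fold changes of 0.76 for PPCK1, -0.37 for ALMT1 and -0.10 for PDR2. Of all genes, 8964 passed the adjusted p in that fit. In the root meristem list of 11 genes DESeq2 called 2 and edgeR 4, beside 31.7% and 45.5% of all genes each tested. PPCK2, at 26 to 36 counts a library, is limited by depth.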

Other observations

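Further genes of malate turnover, looked up after their values were seen, moved in both directions and stayed short of 2-fold. The cytosolic malate dehydrogenase gene cMDH2 had 23.49, 26.51 and 24.52 FPKM in phod2, against 19.07, 18.40 and 18.24 FPKM in WT, a rise of 0.38 in log2 units (adjusted p = 3.4e-07). Its more abundant counterpart cMDH1 fell by 0.15 (adjusted p = 3.1e-07), and the mitochondrial gene mMDH2 by 0.31 (adjusted p = 3.6e-06). The peroxisomal gene pMDH2 rose by 0.20 (adjusted p = 1.0e-10). Among the phosphoenolpyruvate carboxylase genes, PPC2 was the most abundant in every library and fell to 83.8 ± 0.914 FPKM in phod2, against 94.9 ± 2.78 FPKM in WT (SD, n = 3 each; log2 fold change -0.22, adjusted p = 2.0e-10). PPC1 did not pass, at means of 41.8 FPKM in phod2 and 41 FPKM in WT (log2 fold change -0.01, edgeR adjusted p = 0.755). FRD3, a relative of MATE that loads citrate into the xylem, fell by 0.33 in log2 units (adjusted p = 0.0309), a call lost in DESeq2 (adjusted p = 0.156), on library totals, by limma, and without phod2 replicate 2 (log2 fold change -0.17) or WT replicate 3 (-0.21).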
